A study of Mus musculus with 16 samples.

Results

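The regions described here are the broad domains of the histone mark H3K27me3, that is the consensus peaks of 20000 bp or more on mouse chromosomes 1 to 19 without chromosome 11. The width of the deposited peak was the sole criterion, and 3126 of all 102957 consensus peaks met it. They made up 3.244% of the 96359 peaks on the same chromosomes and covered 101.9 of the 436.5 Mb under those peaks, or 23.34%. Counts came from 16 ChIP-seq libraries of 4 mouse embryonic stem cell (mESC) lines, which were kept in medium that held serum, LIF, PD0325901 and CHIR99021. The lines were a WT line (WT control), a Firre WT line with an inducible transgene for the long non-coding RNA Firre (WT transgene), a line labelled Firre KO (here the line labelled KO control) and a Firre KO line with the inducible transgene (KO transgene). All carried the treatment label doxycycline, controls included, with time labels of 0 and 48 h. Every line and time gave 1 H3K27me3 and 1 input library, so no condition had a replicate. Neither the clonality of a line nor the promoter of the transgene is given in the sources used here.

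H3K27me3 is written by Polycomb repressive complex 2, whose catalytic subunits are Ezh1 and Ezh2, and it is read by Polycomb repressive complex 1. In embryonic stem cells the mark is known for marking unmethylated CpG-rich promoters of genes for lineage regulators, which are kept silent until differentiation. Where several such genes lie side by side, as in the Hox clusters, the mark spreads over the whole cluster and forms a broad domain.

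Promoter sequences are shown for 6 domains that the results turn on, to show how far their density of CG dinucleotides ranges. Each is the 250 bases before a RefSeq start site on GRCm38.p6 (the build of mm10), 5′ to 3′ on the strand of the gene, with every CG in capitals. They belong to Skor1 (highest mark over input; chr9:63148962-63149211, minus strand, 36 CG), Hoxd13 (widest domain; chr2:74667975-74668224, plus strand, 31), Tbx18 (lower at 48 h in every line; chr9:87731261-87731510, minus strand, 15), Rapgef4 (lower on induction; chr2:71980965-71981214, plus strand, 30), Lats2 (higher in the lines labelled KO; chr14:57746124-57746373, minus strand, 31) and Pparg (among the lowest over input; chr6:115421816-115422065, plus strand, 2).
Skor1: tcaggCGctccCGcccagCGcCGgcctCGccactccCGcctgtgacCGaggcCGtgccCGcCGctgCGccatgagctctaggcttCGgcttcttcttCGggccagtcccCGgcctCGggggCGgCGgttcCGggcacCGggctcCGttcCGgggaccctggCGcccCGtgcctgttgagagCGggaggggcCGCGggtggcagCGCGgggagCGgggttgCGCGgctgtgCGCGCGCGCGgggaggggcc
Hoxd13: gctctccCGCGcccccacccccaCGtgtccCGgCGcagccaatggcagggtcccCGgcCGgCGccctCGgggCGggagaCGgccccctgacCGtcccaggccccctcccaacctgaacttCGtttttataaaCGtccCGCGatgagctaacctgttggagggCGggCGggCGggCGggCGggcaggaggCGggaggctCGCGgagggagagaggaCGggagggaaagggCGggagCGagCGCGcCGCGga
Tbx18: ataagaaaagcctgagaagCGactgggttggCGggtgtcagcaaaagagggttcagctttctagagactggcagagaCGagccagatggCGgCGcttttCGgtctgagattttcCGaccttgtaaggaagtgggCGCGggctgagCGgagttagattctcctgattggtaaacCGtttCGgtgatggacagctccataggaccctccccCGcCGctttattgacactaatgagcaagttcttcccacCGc
Rapgef4: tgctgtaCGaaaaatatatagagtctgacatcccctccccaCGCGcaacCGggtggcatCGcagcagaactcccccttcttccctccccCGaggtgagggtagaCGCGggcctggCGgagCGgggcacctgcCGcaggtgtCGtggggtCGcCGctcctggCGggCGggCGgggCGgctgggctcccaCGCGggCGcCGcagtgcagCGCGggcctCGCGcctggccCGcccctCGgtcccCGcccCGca
Lats2: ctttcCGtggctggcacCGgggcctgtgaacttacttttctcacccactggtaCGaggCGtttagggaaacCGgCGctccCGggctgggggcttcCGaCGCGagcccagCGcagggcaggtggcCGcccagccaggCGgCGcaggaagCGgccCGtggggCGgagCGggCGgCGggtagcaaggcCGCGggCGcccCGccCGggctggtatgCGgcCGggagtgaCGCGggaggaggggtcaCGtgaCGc
Pparg: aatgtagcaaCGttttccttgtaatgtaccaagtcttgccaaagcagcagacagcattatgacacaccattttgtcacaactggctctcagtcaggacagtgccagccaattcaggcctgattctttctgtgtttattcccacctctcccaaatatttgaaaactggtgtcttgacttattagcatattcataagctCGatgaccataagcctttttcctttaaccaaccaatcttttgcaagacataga

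The Firre gene itself served as a check on the labels. At its peak (chrX:50569315-50570264) the H3K27me3 libraries held 1 and 0 counts in WT control at 0 and 48 h (a count of 0 allows up to 3), 263 and 57 in WT transgene, 172 and 47 in KO transgene. The line labelled KO control held 164 and 177. Input at this peak stood at 10.8 and 11.2 times the chromosome X mean per width in the line labelled KO control, against 0.453 and 0.946 in WT control, which goes against a label of KO without a transgene. The extent of the deletion within the gene is not stated in the labels. Total counts over all peaks were 10380781 to 14787938 in H3K27me3 and 3340654 to 6244333 in input, lowest in the 0 h libraries of the line labelled KO control. A single domain held 285 to 10327 H3K27me3 counts per library (median 823) and 79 to 1986 input counts (median 315). Since no label names separate cultures, p-values measure only the spread between these libraries, which may be technical. For time and induction that spread was in effect a value shared by all peaks, not one estimated at each domain. In the comparisons of KO with WT and of transgene with control lines, the shared value carried most of the weight as well. The very small p-values rest on it.

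Most domains carried moderately more H3K27me3 over input than all peaks of these chromosomes pooled, and the widest carried the most. Levels are given as CPM, a library's counts in a region scaled to the same total over the peaks of these chromosomes (0.5 added before scaling). They are also given as the ratio of H3K27me3 to input CPM of the same line and time. A ratio of 1 is the level of those peaks pooled. Wide and strong peaks weigh most in it, so it is not the level of a typical peak. Ratios printed with an SD are arithmetic means over the 8 conditions and lie slightly above the geometric means used for ranges and medians over domains. The ratio over 8 conditions (geometric mean) had a median of 1.141 over domains, with quartiles of 1.019 and 1.318 and a range of 0.759 to 2.378. It was above 1 in all 8 conditions at 1763 domains and below 1 in all 8 at 178. A mean ratio of 2 or more was seen at 19 domains, out of 52 such peaks on these chromosomes, while 645 domains had a mean under 1. The peak caller's own fold, a value of the authors for the peak as a whole, ran from 1.503 to 4.115.

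In the quasi-likelihood test of edgeR (Benjamini-Hochberg adjusted p under 0.05 over all peaks), H3K27me3 was higher than input at 2045 domains (65.4%) and lower at 311 (9.95%). Over all peaks tested 7.66% were higher and 36.8% lower. Libraries were scaled to their counts within peaks, so lower than input here means below the pooled level of those peaks. It does not measure depletion against input DNA. The median fitted log2 difference from input over peaks of these chromosomes was -0.21, so a domain called lower can still exceed the median peak. With TMM as scaling, 27 domains were lower than input. Peaks were called on libraries of this study, so these counts, and the comparison of levels between widths that follows, describe the domains and are not independent of how they were found. The median ratio per condition was 1.147 ± 0.00694 (SD, n = 8) in domains, 1.004 ± 0.00436 in peaks of 10 to 20 kb and 0.8528 ± 0.0107 in peaks under 10 kb. The domains differed from these narrower peaks by 0.19 ± 0.01 (SD) and 0.43 ± 0.03 on the log2 scale, in 8 of 8 conditions each, and no test is given because width and level come from the same libraries.

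Width and level rose together among the domains. The median width was 27.28 kb, with quartiles of 22.88 and 36.66 kb. The 1855 domains of 20 to 30 kb had a median ratio of 1.083, the 960 of 30 to 50 kb 1.193 and the 311 of 50 kb or more 1.346. H3K27me3 CPM per kb rose through these classes from 2.37 to 2.60 and 2.89, while input stayed between 2.16 and 2.2. Of the widest class, 298 domains were called higher than input and 1 lower, and of the narrowest class 1007 and 258. Just inside the width limit, domains of 20001, 20004 and 20004 bp had mean ratios from 0.895 to 1.20, and just outside it the nearest 3 peaks, the narrowest of 19982 bp, had ratios of 1.39, 1.05 and 0.931.

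**Figure D1:**
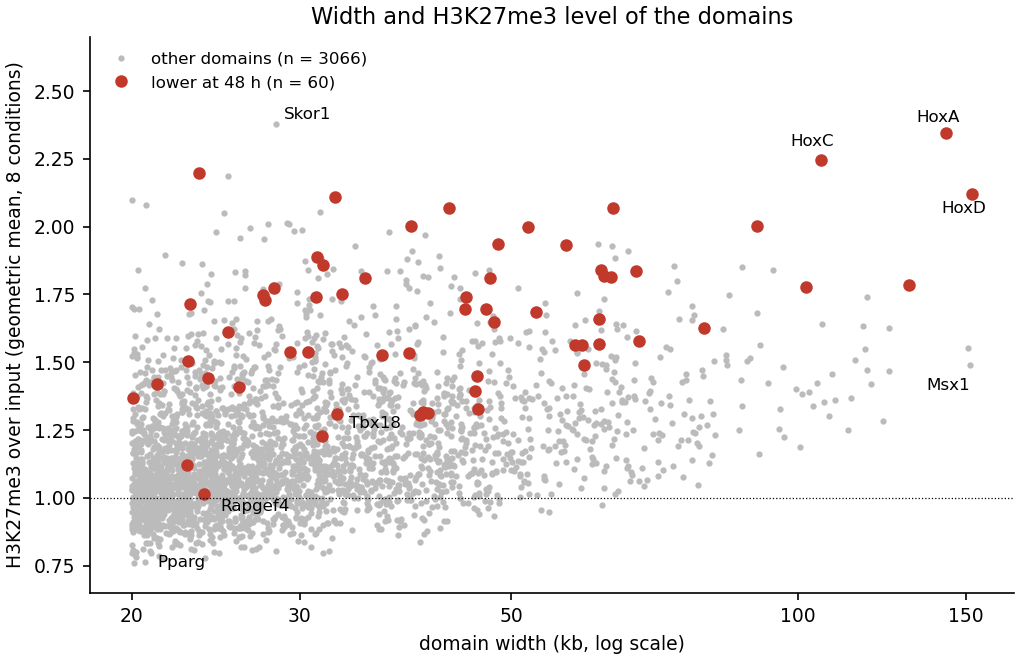
Width (kb, log axis) and ratio of H3K27me3 to input (geometric mean over 8 conditions) of each of the 3126 domains, with the 60 called lower at 48 h in red. Ratios spread between 0.759 and 2.378, and the red points lie mostly in the upper part of the cloud, with a median ratio of 1.70 against 1.14 for all domains.

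The widest domains lay over clusters and isolated genes of developmental regulators. The HoxD cluster, whose transcription factors pattern limbs and the body axis, was covered by a single domain of 152.2 kb (chr2:74637183-74789361) that also took in Evx2. Next came domains around the homeobox genes Msx1 (chr5:37771761-37923121, 151.4 kb), and Hmx1 with the adrenoceptor gene Adra2c (chr5:35259658-35410471, 150.8 kb). The HoxA cluster lay in 1 domain of 143.1 kb (chr6:52139636-52282771), followed by Six2 and Six3 (130.7 kb), Uncx (124.7 kb), the neuronal transporter gene Slc6a17 (124.6 kb), Kcnip3 (122.7 kb), Lrmda with Zfp503 (119.2 kb) and Ebf3 (118.3 kb). Width and level did not rank alike: the Msx1 domain had a ratio of 1.490 ± 0.0485 (SD, n = 8) and Kcnip3 1.284 ± 0.0334, against 2.124 ± 0.128 for HoxD.

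The strongest domain over input belonged to Skor1, which encodes a corepressor of SMAD signalling in the nervous system (chr9:63133519-63161844, 28.32 kb). Its H3K27me3 CPM was 153.9 and 142.2 in WT control at 0 and 48 h, 169.3 and 166.6 in WT transgene, 178.9 and 162.4 for the line labelled KO control and 158.3 and 156.1 in KO transgene. Input CPM at Skor1 was 63.0 to 73.46, below every H3K27me3 value, and the ratio was 2.382 ± 0.16 (SD, n = 8). The HoxA domain followed with 2.354 ± 0.192 and the main HoxC domain (chr15:102934929-103040609, 105.7 kb) with 2.262 ± 0.297. Tfap2a, a regulator of neural crest, had 2.208 ± 0.227, HoxD 2.124 ± 0.128 and Nkx2-2, a regulator of ventral neural tube, 2.123 ± 0.259. Espn, which encodes an actin-bundling protein of hair cells, had 2.106 ± 0.21, Slc32a1, which encodes the vesicular GABA transporter, 2.088 ± 0.183, and Nr2e1, a nuclear receptor of neural stem cells, 2.072 ± 0.121.

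At the other end, a domain within Trpm1, which encodes a cation channel of retina and melanocytes (chr7:64240039-64260131), had a ratio of 0.7617 ± 0.0699. The domain over a listed start of Pparg, the nuclear receptor of fat cells (chr6:115402347-115423004), had 0.7664 ± 0.0671. A domain without a RefSeq gene (chr19:18500994-18522504) had 0.7754 ± 0.0481. At Pparg, H3K27me3 CPM was 34.0 to 42.4 and input CPM 45.83 to 54.58, so that no H3K27me3 library reached the lowest input library on this scale. That places the domain below the pooled level of the peaks and does not show depletion against input DNA.

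Most domains overlapped genes. RefSeq spans of protein-coding genes overlapped 1719 domains singly and 453 with 2 or more genes, 498 domains overlapped only other genes and 456 none. Together they overlapped 2304 coding genes, and 1084 domains held the start of a coding gene listed in the RefSeq promoter table, which is not complete. Several domains could lie along 1 long gene, with 9 in Shank2 (a postsynaptic scaffold), 8 in Kirrel3 (a synaptic adhesion protein) and 7 in Nav2 (a neuron navigator). The median gap to the next domain was 154.5 kb, and 1544 domains (49.39%) lay within 50 kb of another. Chromosome 9 had the highest share of its peaks as domains (4.395%, 249 domains), chromosome 16 the lowest (1.747%, 70), and chromosome 2 the most domains (310).

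Genes of the lists for developmental transcription factors were often in a domain. All 31 genes of HoxA, HoxC and HoxD with Evx1 and Evx2 lay in 5 domains with a median ratio of 2.121, from 1.394 to 2.347. HoxC was split between the main domain and a weaker one at Hoxc13 (chr15:102887393-102927898), with 1.404 ± 0.182 (SD, n = 8). Of 69 other homeobox genes 58 lay in 55 domains (median ratio 1.623). The counts were 17 of 18 for forkhead genes (15 domains, median 1.684), 10 of 11 for LIM homeobox genes (13 domains, 1.576), 7 of 8 for Pax (11 domains, 1.528), 8 of 11 for Sox (8 domains, 1.473), 5 of 8 for T-box (5 domains, 1.648), 18 of 27 for GATA and other zinc finger genes (22 domains, 1.557) and 19 of 39 for bHLH genes with Tfap2 and Ebf (21 domains, 1.527). In all, 155 domains held a gene of these lists, with a median ratio of 1.595 against 1.129 for the other 2971.

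Genes for signals, adhesion proteins and channels lay in domains of a lower median level than those for transcription factors. Of 40 secreted signal genes 24 lay in 23 domains (median ratio 1.439), among them Wnt5a with 2.016 ± 0.148 (SD, n = 8). Of 35 axon guidance and adhesion genes 14 lay in 26 domains (median 1.215), and of 40 ion channel and neurotransmitter receptor genes 19 lay in 33 domains (median 1.233). No housekeeping gene out of 14 lay in a domain and 2 touched any peak.

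Marker genes of embryonic stem cells were largely free of domains, as were most trophoblast and fibroblast markers, while most primitive endoderm markers lay in one. Of 22 pluripotency genes 2 touched any peak and 1 a domain: Esrrb, an orphan nuclear receptor of the pluripotency network, which carried 2 domains (chr12:86341363-86385724 and chr12:86397450-86430951) with ratios of 1.274 ± 0.0749 and 1.368 ± 0.118 (SD, n = 8). The first had H3K27me3 CPM of 122.8 to 135.7 over input CPM of 94.53 to 102.7, and the second 100.3 to 123.7 over 73.25 to 85.74, without overlap in either. Primitive endoderm markers lay in domains for 7 of 10 genes, including Gata4, Gata6 and Sox17 (7 domains, median ratio 1.422). Trophoblast markers did for 2 of 9 (Cdx2 and Krt18, median 1.557) and fibroblast markers for 3 of 11 (Col6a3, Prrx1 and Twist1, 4 domains, median 1.35). Unlike the pluripotency genes, most of these markers touched a peak of any width: 8 of 9 trophoblast, 7 of 11 fibroblast and 10 of 10 primitive endoderm markers. The Polycomb genes in domains were Bmi1 and Phc2, 2 of 12. The share of other cell types in these cultures was not tested.

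The share of CpG-rich promoters was near the background over all domains and differed with the level of the mark. A promoter here is the 300 bases around a start, and it counts as rich with a GC content of at least 55% and an observed over expected CpG of at least 0.65. The letters CG, which read the same on both strands, occurred in 95.5% of all 18524 coding promoters on these chromosomes and in 99.0% of the 1536 in domains. Rich promoters were 38.7% of all, 39.1% of those in domains, 34.0% of those in peaks of 10 to 20 kb, 20.8% in peaks under 10 kb and 42.2% outside any peak. Within domains the share went from 9.82% in the 782 domains with the lowest ratio over 27% and 43.6% to 47.0% in the 782 with the highest, when domains are ranked by ratio into 4 groups of like size. This is a description with no test, and the highest of these shares is close to that outside any peak. Single promoters varied within a level and within a gene: Skor1 has 3 listed promoters with 12, 14 and 36 CG in the 250 bases before the start, Lats2 has 2 with 4 and 31, and in both the one with the most CG is printed. The Pparg promoter listed within its domain has 2 CG and that of Nr2f2, a domain of high ratio, has 1. Starts of these genes outside the domains are not shown.

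The share of all counts on these peaks that fell in domains was 27.36% ± 0.360 (SD, n = 8) in H3K27me3 and 22.25% ± 0.0826 in input. The H3K27me3 shares at 0 and 48 h were 26.95% and 26.71% in WT control, 27.7% and 27.44% in WT transgene, 27.78% and 27.47% for the line labelled KO control, and 27.42% at both times in KO transgene. Input shares lay between 22.15% and 22.38%, below all of them. H3K27me3 exceeded input by 5.12 percentage points, in 8 of 8 conditions, which is a description because the peaks were called on libraries of this study. The share was 0.198 points lower at 48 h, and higher in 1 of 4 lines (exact sign-flip p = 0.25, adjusted p = 0.343 over 4 comparisons, where 4 lines allow no p under 0.125). Lines labelled KO were higher than WT by 0.324 points (exact permutation p = 0.257, adjusted p = 0.343) and transgene lines than controls by 0.270 (exact permutation p = 0.4, adjusted p = 0.4), and the smallest p of that design is 0.0286. Each of these groups of 4 libraries holds 2 lines at both times, which the permutation treats as independent. Both of these differences turned negative without the WT control line, at -0.0495 and -0.13 points.

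**Figure D2:**
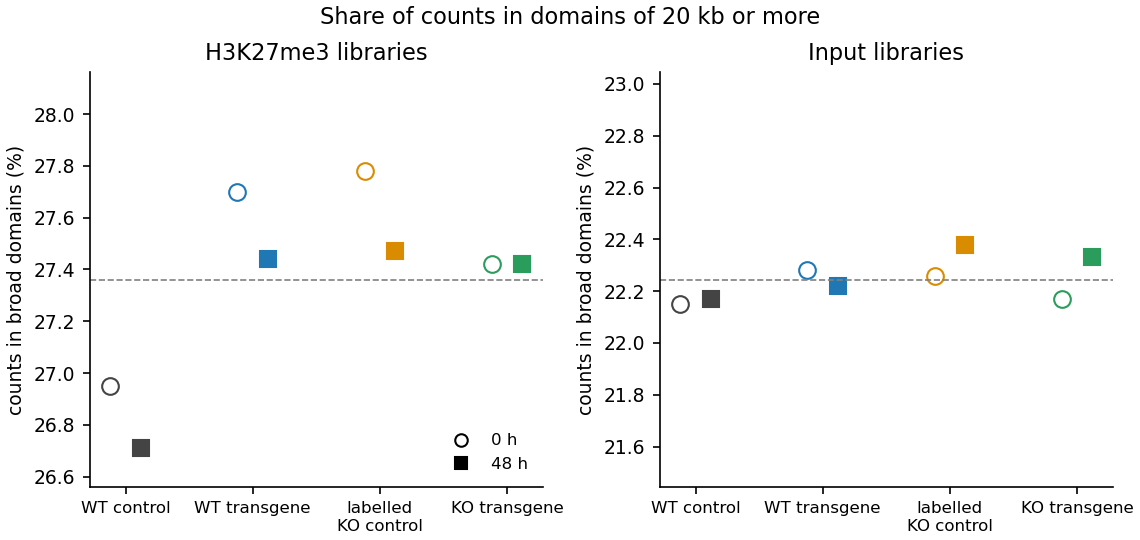
Share of counts (%) in domains per library, by line, at 0 h (open circles) and 48 h (filled squares), with the mean over 8 libraries as a dashed line; both axes start above 0. WT control has the lowest H3K27me3 shares, 26.95% and 26.71%, and input shares stay between 22.15% and 22.38%.

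Over 48 h of doxycycline, H3K27me3 fell at a small set of domains, most of them strongly marked, in lines labelled with and without the transgene. These included HoxD, HoxA and the main HoxC domain and domains over Tbx18, a T-box regulator of heart and urogenital mesenchyme, Tcf12, a bHLH partner of lineage factors, Pou3f2, a regulator of neurons, and Nr2f2, a nuclear receptor of vein and mesenchyme. Not all were strongly marked: Tbx18 and Tcf12 had ratios of 1.308 and 1.318, near the upper quartile of all domains, and Rapgef4 1.013. The falls were small, with a median of -0.14 on the log2 scale and a range from -0.43 to -0.08. The value of -0.43 belongs to Rapgef4, where transgene lines changed by -0.83 and -0.97 and control lines by -0.08 and 0.02. Tbx18 followed with -0.23. In all 60 domains were lower at 48 h (1.92%, against 0.102% of all peaks) and 0 higher (0.0068% of all peaks), by edgeR with line as block and adjustment over all peaks. Counted in both directions, 566 domains had an unadjusted p under 0.05. The median change over domains was -0.01 against 0.00 over all peaks, and the SE of a change was smaller in domains (median 0.0371) than over all peaks (0.138).

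At Tbx18 (chr9:87720465-87753302) the CPM at 0 and 48 h was 88.79 and 77.11 in WT control, 91.04 and 77.71 in WT transgene, 110.6 and 93.77 for the line labelled KO control and 98.49 and 83.56 in KO transgene. Each line was lower at 48 h, although the 48 h value of the line labelled KO control lay above the 0 h values of both WT lines. The change was -0.23 ± 0.03 (SE; edgeR adjusted p = 3.16e-08), with input CPM between 59.69 and 72.34. At HoxA the CPM was 751.6 and 688.3 in WT control, 839.8 and 794.0 in WT transgene, 904.1 and 810.8 for the line labelled KO control and 839.5 and 769.8 in KO transgene. Again every line was lower at 48 h while the lines differed more than the times did. The change was -0.13 ± 0.01 at HoxA (adjusted p = 8.68e-25), -0.15 ± 0.01 at HoxD (1.64e-28) and -0.10 ± 0.01 at HoxC (4.92e-07). The domain at Hoxc13 had -0.03 ± 0.03 and that at Evx1 -0.07 ± 0.02, neither past the threshold.

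Of the largest falls in all 4 lines, Tcf12 had -0.19 ± 0.03 (adjusted p = 1.12e-07), Cyp1b1, which encodes a cytochrome P450, -0.18 ± 0.04 (0.00968), Pou3f2 -0.18 ± 0.03 (4.24e-06) and Nr2f2 -0.16 ± 0.02 (2.9e-10). At Nr2f2 the CPM went from 259.8 to 235.3 in WT control, from 277.7 to 252.1 in WT transgene, from 286.4 to 265.4 for the line labelled KO control and from 286.7 to 246.9 in KO transgene. Domains within Nbea (neurobeachin, a synaptic trafficking protein), Prdm1 (a repressor needed for germ cells) and Lgr5 (an R-spondin receptor of stem cells) fell by 0.17 each. Among 60 domains, 56 were lower in all 4 lines. The lines had medians of -0.12 (WT control, 58 of 60 below 0), -0.13 (WT transgene, 60), -0.13 (line labelled KO control, 58) and -0.14 (KO transgene, 60) over these domains, which include those chosen by the same values. Input at the same domains had a median change of -0.01.

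**Figure D3:**
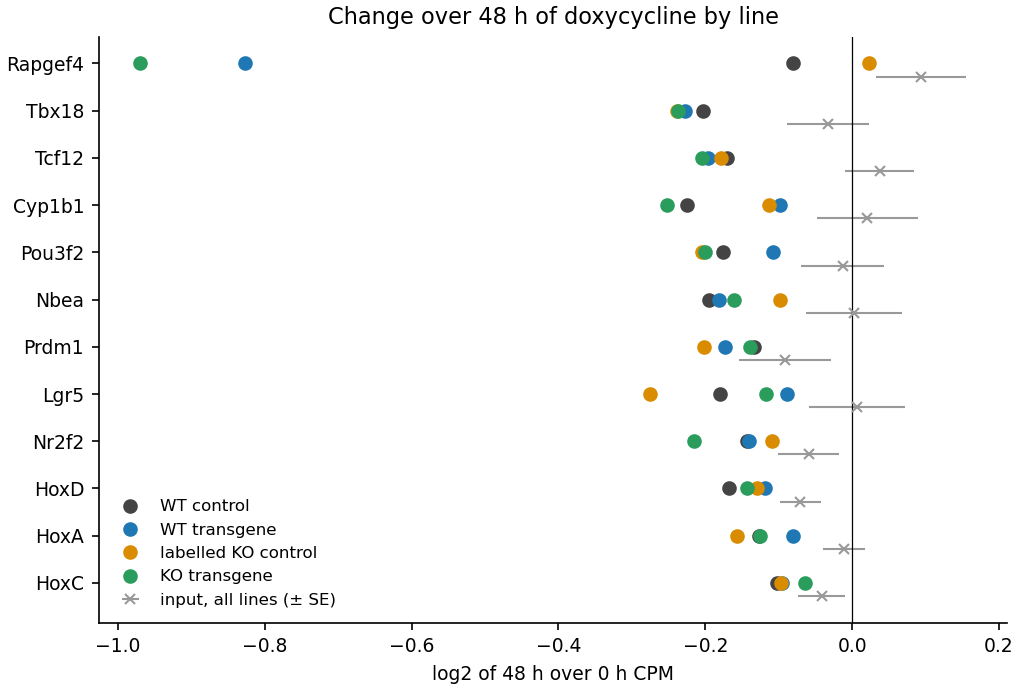
Log2 of the 48 h over 0 h CPM in each of the 4 lines (coloured points) at 12 domains that fell, with the fitted input change over all lines (grey cross, ± SE). Apart from Rapgef4, where the control lines lie at -0.08 and 0.02, all lines lie below 0 at these domains.

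By gene list, 33 of the 155 domains with a developmental transcription factor fell (21.3%), against 27 of the other 2971 (0.909%), and 46 of the 60 held a coding start. Falls were called at 10 of 55 other homeobox domains (Nkx6-1 -0.12 ± 0.03, Nkx2-2 -0.11 ± 0.03, Six2 and Six3 -0.09 ± 0.02), 6 of 15 forkhead domains (Foxf1 -0.11 ± 0.02) and 4 of 21 bHLH domains (Tfap2a -0.14 ± 0.03, Hand2 -0.10 ± 0.02). They were called at 3 of 5 T-box domains (Tbx18, Tbx15 -0.15 ± 0.03 and Tbr1 -0.14 ± 0.03), 3 of 8 Sox domains (Sox1 -0.13 ± 0.02, Sox14 -0.10 ± 0.02), 2 of 11 Pax domains (Pax6 -0.12 ± 0.02, Pax3 -0.11 ± 0.02) and 2 of 22 GATA and zinc finger domains (Zic1 with Zic4 -0.15 ± 0.02). No LIM homeobox, secreted signal, channel, pluripotency, primitive endoderm, trophoblast or fibroblast domain was called, 1 of 26 axon guidance domains was (Pcdh7 -0.14 ± 0.03), and the domain over Spag6 and Bmi1 fell by 0.11. Level moved with these counts: in the 4 groups of domains by ratio, from low to high, 1, 1, 5 and 53 fell, and the 60 had a median ratio of 1.70 and a median width of 43.9 kb. The part of level, depth per domain and collection batch, which no label gives, in these counts was not tested.

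The number of falls depended on the test. It was 117 with limma-voom, 7 with DESeq2, 1 with input as offset, 0 without the line block and 5 when a trend of CPM with the ratio was taken out per library, and it dropped to 30 without WT control, 30 without WT transgene and 34 without the line labelled KO control.

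Induction of Firre was tested as the 48 h change in transgene lines minus that in control lines. The control lines include the line labelled KO control, whose Firre counts go against its label. The domain over the start of Rapgef4, which encodes a cAMP-dependent activator of Rap GTPases (chr2:71968482-71992280, 23.8 kb), was the 1 domain past the threshold, being lower (0.00583% of all peaks) and 0 higher (0.0% of all peaks), with 189 at an unadjusted p under 0.05. Its CPM at 0 and 48 h was 64.83 and 61.29 in WT control, 66.88 and 37.71 in WT transgene, 66.42 and 67.51 for the line labelled KO control and 65.79 and 33.58 in KO transgene. The 0 h values ranged from 64.83 to 66.88, and the 48 h values of both transgene lines lay below the lowest input value of 50.05. As at Pparg, this scale sets a value against the pooled level of the peaks and does not measure depletion against input DNA. The difference of changes was -0.86 ± 0.08 (edgeR adjusted p = 6.76e-21), and in input 0.01. In the other 6 conditions its H3K27me3 CPM was 61.29 to 67.51 over input CPM of 50.05 to 56.19, without overlap. The median difference of changes over all domains was 0.01. The limma-voom test called 3 domains higher besides, and edgeR 1 without the 0 h library of WT control.

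**Figure D4:**
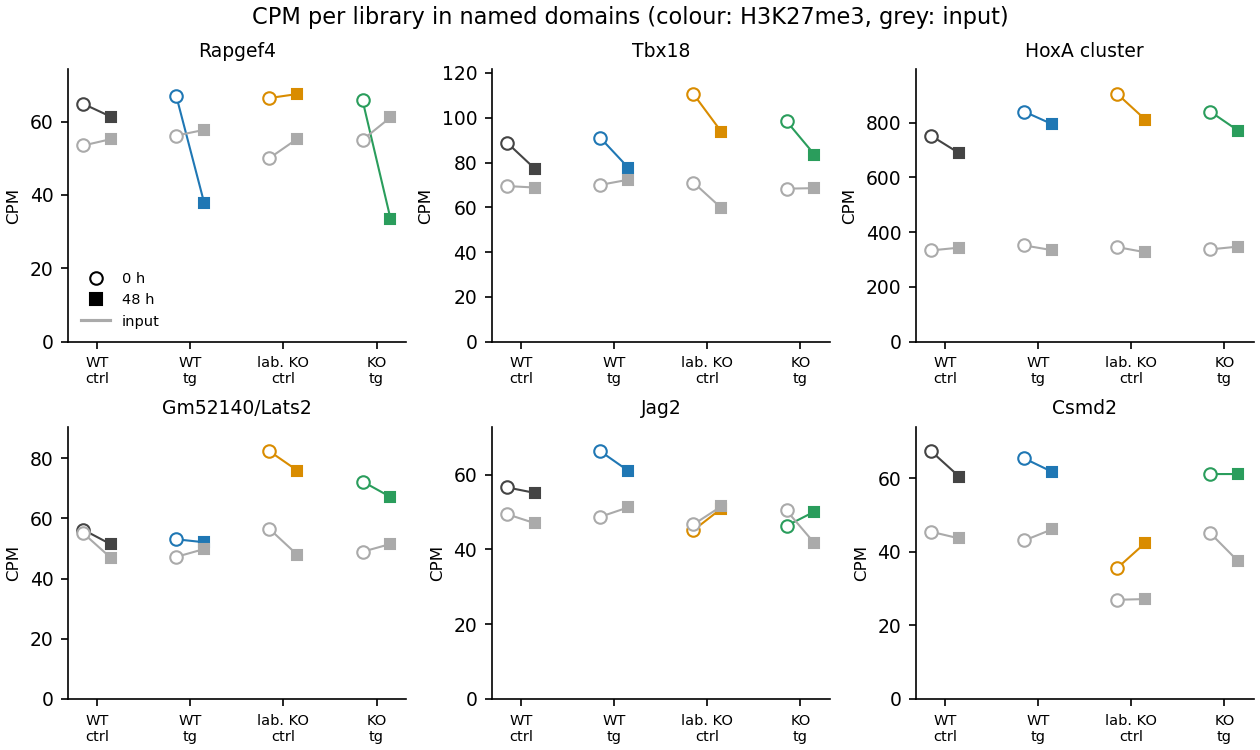
CPM per library at 6 domains, by line, at 0 h (open circles) and 48 h (filled squares), H3K27me3 in colour and input in grey, each axis from 0. Rapgef4 drops to 37.71 and 33.58 in the transgene lines at 48 h, Tbx18 and HoxA are lower at 48 h in every line, Gm52140/Lats2 and Jag2 differ between WT and the lines labelled KO, and at Csmd2 the line labelled KO control is low in H3K27me3 and input alike.

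Between the lines labelled KO and the WT lines, domains moved in both directions. Rises were more frequent towards high levels (15, 16, 28 and 57 in the 4 groups of domains by ratio, from low to high) and falls towards low ones (15, 11, 9 and 4). The largest rise was at the domain over Gm52140 and the start of Lats2, a kinase of the Hippo pathway (chr14:57733605-57753648, 20.04 kb). The largest falls past the threshold were at Csmd2, which encodes a large adhesion protein of neurons, and Jag2, a ligand of Notch receptors. In all 116 domains were higher (3.71%, against 3.8% of all peaks) and 39 lower (1.25%, against 0.622% of all peaks), by edgeR in a model with time and transgene. On the chromosomes of the domains alone, 1.01% of peaks were higher and 0.64% lower. Peaks of 10 to 20 kb had 2.72% higher and 1.72% lower, a larger share of falls than in domains. The median SE was 0.0465 in domains, 0.06 in peaks of 10 to 20 kb and 0.152 in peaks under 10 kb. Medians were 0.17 (0.12 to 0.48) for the rises and -0.17 (-0.35 to -0.13) for the falls, with input medians of -0.02 and -0.01, and 107 and 37 kept 1 direction in all 4 matched pairs. The lines labelled KO include the one whose Firre counts go against its label, and with 2 lines a side the genotype and other differences between lines cannot be told apart. The balance turned with total counts as scaling, which gave 87 higher and 128 lower. The counts were 15 and 0 with input as offset, 35 and 10 with DESeq2 and 111 and 102 with the trend with ratio taken out, and 45 to 52 higher and 18 to 20 lower without 1 library of WT control or of the line labelled KO control.

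At Gm52140/Lats2 the CPM at 0 and 48 h was 56.23 and 51.34 in WT control and 53.06 and 52.07 in WT transgene. It was 82.31 and 75.9 for the line labelled KO control and 72.26 and 67.13 in KO transgene, so the groups did not overlap, while input lay at 46.78 to 56.5 throughout. The difference was 0.48 ± 0.05 (adjusted p = 7.2e-15). Rises were also called at Parvb, a parvin of focal adhesions (0.36 ± 0.05, adjusted p = 1.24e-09), Pmaip1, a pro-apoptotic gene (0.35 ± 0.05), Eef2k, the kinase of elongation factor 2 (0.35 ± 0.05, 9.29e-09), Snai1, a repressor of epithelial genes (0.32 ± 0.05), Pknox2, a TALE homeobox gene (0.32 ± 0.05) and Dmkn (0.28 ± 0.05). At Eef2k the CPM was 54.71 and 56.83 in WT control, 46.72 and 48.81 in WT transgene, 71.97 and 68.33 for the line labelled KO control and 60.98 and 62.08 in KO transgene. Both HoxC domains were higher, by 0.27 ± 0.04 at Hoxc13 and 0.21 ± 0.04 at the main domain, while HoxA had 0.11 ± 0.04 (adjusted p = 0.0893) and HoxD 0.11 ± 0.04 (0.0861).

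Among the falls, Jag2 (chr12:112906725-112929355) had CPM of 56.56 and 55.08 in WT control, 66.23 and 61.01 in WT transgene, 45.1 and 50.92 for the line labelled KO control and 46.29 and 50.09 in KO transgene. All 4 values of the lines labelled KO lay below all 4 of WT, and the difference was -0.31 ± 0.05 (adjusted p = 1e-06). Foxn4, a forkhead factor of retina (-0.22 ± 0.05), St3gal1, a sialyltransferase gene (-0.22 ± 0.05), Gm20426 (-0.22 ± 0.05) and Aif1l (-0.19 ± 0.05) also fell. Csmd2 (chr4:127984815-128006833) had -0.35 ± 0.06 (adjusted p = 1.06e-06), but there input fell as well, by 0.38 ± 0.08. Its H3K27me3 CPM was 35.63 and 42.44 for the line labelled KO control and 60.49 to 67.36 in the other libraries, and its input CPM was 26.98 and 27.16 against 37.39 to 46.15. With input as offset the Csmd2 value was 0.07.

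The counts of the 2 pairs of lines differed. Each side of a pair is 1 line, whose 0 and 48 h libraries serve as its replicates, so these calls rest on the spread within lines. The common dispersion of edgeR was 9.77e-05 with every line fitted, as here and in the difference between pairs, and 0.000892 in the models of KO and of transgene, where the 0 and 48 h libraries of a line are likewise taken as independent. The line labelled KO control against WT control gave 422 higher (13.5%, against 3.69% of all peaks) and 49 lower domains (1.57%, against 0.585%). KO transgene against WT transgene gave 28 higher (0.896%, against 1.49% of all peaks) and 53 lower (1.7%, against 0.251%). Of the 116 domains called higher over both pairs, 109 were called in the control pair, 24 in the transgene pair and 21 in both, with medians of 0.26 and 0.10. Gm52140/Lats2 (0.57 and 0.39), Parvb (0.42 and 0.30) and Eef2k (0.34 and 0.35) were higher in both pairs, whereas Jag2 had -0.20 and -0.42.

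The difference between the pairs was tested as such, a comparison chosen after seeing the data. It was lower in the transgene pair at 140 domains (4.48%, against 0.397% of all peaks) and higher at 4 (0.128%, against 0.0437%), by edgeR with adjustment over all peaks. The HoxA difference of -0.30 ± 0.02 came from 0.27 ± 0.02 in the control pair and -0.04 ± 0.02 in the transgene pair. At Skor1, -0.33 ± 0.05 came from 0.22 ± 0.04 and -0.11 ± 0.04, and at Evx1, -0.33 ± 0.05 came from 0.21 ± 0.03 and -0.11 ± 0.03. The main HoxC domain (-0.30 ± 0.03), Tfap2a (-0.31 ± 0.06), Espn (-0.30 ± 0.06), Snai1 (-0.30 ± 0.07), Nkx2-2 (-0.29 ± 0.05) and HoxD (-0.21 ± 0.02) were lower in the same sense. Foxn4 differed by -0.34 ± 0.09, from -0.04 in the control pair and -0.38 in the transgene pair, and Csmd2 by 0.61 ± 0.08, from -0.68 and -0.07. These counts were 53 and 6 with total counts as scaling, 11 and 1 with DESeq2, 2 and 0 with input as offset and 5 and 7 with the trend with ratio taken out, and 55 to 121 and 1 to 2 when 1 library was left out. At Skor1 the WT control line had the lowest CPM, 142.2 and 153.9, against 156.1 to 178.9 in the other lines. Without the 0 or 48 h library of WT control, 55 and 66 domains were lower. The count was 71 and 76 without those of WT transgene, 79 and 80 without those of the line labelled KO control, and 106 and 121 without those of KO transgene.

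**Figure D5:**
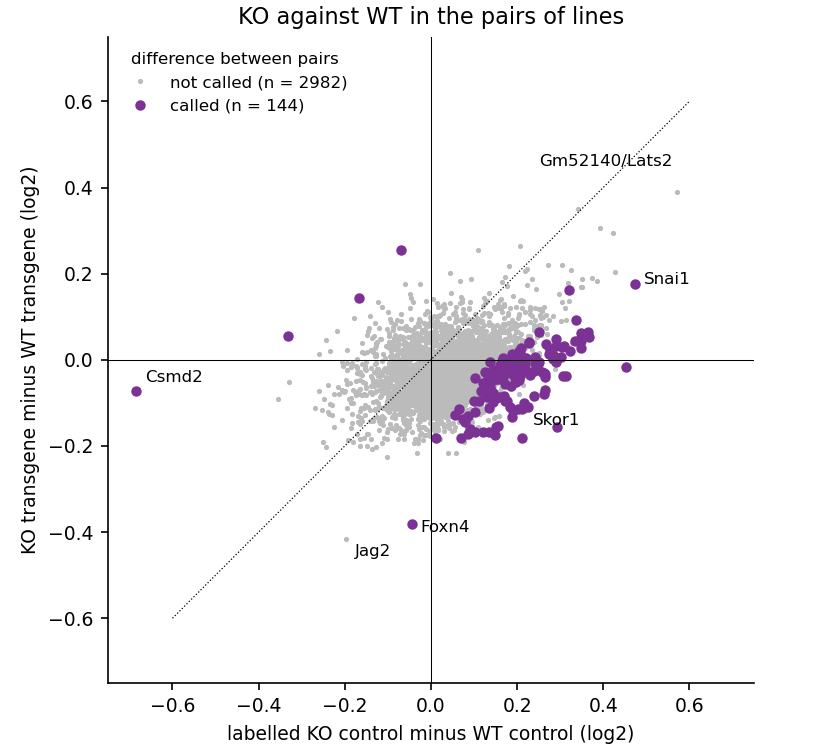
Log2 difference of each domain between the line labelled KO control and WT control (x axis) and between KO transgene and WT transgene (y axis), with the 144 domains whose difference between pairs was called in purple and equality as a dotted line. The 140 lower ones lie below that line, most with positive x values, and Csmd2 is at -0.68 and -0.07.

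Transgene against control lines, with both times together, called 3 domains higher (0.0291% of all peaks) and 2 lower (0.0457%), with 329 at an unadjusted p under 0.05. Here too the control lines include the line labelled KO control, whose Firre counts go against a label without a transgene. No call was left with input as offset, DESeq2 gave 1 and 0, total counts 9 and 4 and limma-voom 10 and 3, and 0 were lower without the 48 h library of the line labelled KO control or of KO transgene. Rapgef4 was lower, with a difference of -0.37 ± 0.06 (edgeR adjusted p = 0.000214), with its low values at 48 h alone as given above. A domain without a RefSeq gene (chr5:33539479-33597129, 57.65 kb) was the 1 call of the same direction in every matched pair. Its CPM was 203.9 and 206.5 in WT control and 240.4 and 234.2 in WT transgene, 188.0 and 179.8 for the line labelled KO control and 211.4 and 214.6 in KO transgene, a difference of 0.22 ± 0.04 (adjusted p = 0.000646) with 0.00 in input. The other calls came mostly from 1 background: Zdbf2, an imprinted gene, had 0.48 in WT lines and 0.03 in the lines labelled KO, Gm15418 had -0.01 and -0.48 (input over both -0.19) and Csmd2 0.02 and 0.63 (input 0.24). By pair of lines, WT transgene against WT control gave 151 higher (4.83%, against 0.237% of all peaks) and 3 lower domains (0.096%, against 0.0359%), and KO transgene against the line labelled KO control 19 higher (0.608%, against 0.0942%) and 49 lower (1.57%, against 0.683%). These pairs use the same libraries as the KO comparisons above and are not independent of them.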

How the data were processed

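H3K27me3 and input DNA were measured by ChIP-seq in 8 conditions (4 lines at 0 and 48 h), 16 libraries in all, with groups from the labels for genotype, antibody and time. Read counts per consensus peak were deposited without normalisation. The deposited peak list of the authors holds a score, a fold enrichment and −log10 q-values per peak. Tools in the submitters' processing notes are featureCounts, DESeq2 1.26.0, MACS2 2.2.71 and BWA 0.7.17-r1188, with the build mm10. The libraries used to call peaks are not given in the sources used here. Counts over a broad peak cannot show changes within it. Peak starts are printed as deposited.

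Counts were tested with edgeR 4.0.16 (R 4.3.3; quasi-likelihood F test, TMM, filterByExpr, Benjamini-Hochberg adjustment over all 102957 peaks, threshold 0.05). Time was tested beside line (3 residual degrees of freedom), induction as time by transgene (2), and KO against WT and transgene against control in additive models with time (4). Prior degrees of freedom, the weight of the spread shared over peaks, were 1860 for time, infinite for induction and 132 for KO and for transgene. H3K27me3 against input used total counts with condition as block, and input libraries were fitted with the same models. CPM used 0.5 added counts. Shares were compared by exact two-sided tests (scipy 1.17.1). Gene spans and promoters came from RefSeq GRCm38.p6, and its promoter table is incomplete.

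The domains and the 18 gene lists were chosen with earlier results of these data known. Named domains were the 10 widest, the 10 highest and 3 lowest by ratio, per comparison up to 8 rises and 8 falls of 1 direction in every matched pair, the Hox clusters, pluripotency genes, the 3 nearest the width limit on either side and up to 4 per list with the highest ratio; a domain among the highest is not reported here. Other called list members, and the calls of the transgene comparison other than the unnamed chromosome 5 domain, were named after their values were seen. On simulated counts of 22506 regions, of 50 changed per size the time model recovered 12 at log2 0.1 and 50 at 0.25, the induction model 0 and 25, the KO model 4 and 47 and the transgene model 1 and 48, with 8, 3, 5 and 5 false calls. The simulated counts were drawn independently with a fixed dispersion per model. They held no differences between lines and no trend with level. The false calls therefore do not measure errors from such sources in the real libraries. Alternatives were other scalings, filters, widths, input as offset, limma-voom (limma 3.58.1), DESeq2 1.42.0 and each library, or for the shares each line, left out.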

Additional observations from a re-analysis of the deposited data

Results flagged for a closer look

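The share of counts in domains was apart from its group in 3 of 14 groups of libraries by Dixon's test: 27.78% in the line labelled KO control at 0 h among the lines labelled KO, 27.7% in WT transgene at 0 h among the transgene lines, and 26.71% in WT control at 48 h among the 48 h libraries. In the ratio over input, 10 of 106 named domains had 1 condition apart from the others. For most it was the line labelled KO control at 0 h, whose libraries had the lowest counts. These were Esrrb (the second domain) 1.62, Nkx2-2 2.71, an unnamed domain on chromosome 2 at 158562832 1.45, Pax7 2.18, Pdgfra 1.81 and Dmkn 1.58. The rest were Car12 0.896 (the same line at 48 h), Isl1 2.09 (WT transgene at 0 h), and Wnt5a 1.67 and Foxl2 1.61 (WT control at 48 h). Chance alone sets about 1 in 20 groups apart.

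The 48 h change of the Rapgef4 domain differed between transgene and control lines by -0.863 on the log2 scale. The difference between KO and WT was itself different in the transgene pair and the control pair of lines at 144 domains, lower in the transgene pair at 140 and higher at 4. Besides HoxA (-0.305), the main HoxC domain (-0.302), HoxD (-0.215), Evx1 (-0.325), Skor1 (-0.328), Tfap2a (-0.305), Espn (-0.302), Snai1 (-0.298), Nkx2-2 (-0.294), Foxn4 (-0.336) and Csmd2 (0.612), the named domains with this difference, which were chosen in part from lists of developmental regulators, were Foxf1 (-0.244), Nr2e1 (-0.243), Cyp26b1 (-0.229), Six2 with Six3 (-0.223), Pax3 (-0.217), the domain over Urad, Cdx2 and Pdx1 (-0.216), Pax7 (-0.216), the domain over Exoc6, Cyp26a1 and Cyp26c1 (-0.211), Lhx5 (-0.203), Tbx1 (-0.193), Pax2 (-0.189), Scn8a (-0.188), Ptf1a (-0.188), Uncx (-0.186), Lmx1b (-0.181), Nr2f2 (-0.181), Tbx5 (-0.176), Epha8 (-0.167), Zic4 (-0.162), Ebf3 (-0.155) and Hmx1 (-0.144).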

How the results depend on the processing

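Libraries were paired by line, as the labels give no replicate beyond 1, and 0 domains fell at 48 h when that block was dropped. With limma-voom, 117 domains were lower and 3 higher at 48 h, 3 were higher on induction, 10 higher in transgene lines, and 246 lower in the difference between pairs. With DESeq2 there were 7 falls at 48 h, 35 higher and 10 lower in KO, 1 and 0 in transgene lines, 1 and 11 in the difference, and 196 lower than input (27 with TMM). With input as offset there was 1 fall at 48 h, 15 and 0 in KO, 0 and 0 in transgene lines and 0 and 2 in the difference, and Csmd2 in KO turned to 0.07. Total counts gave 1 rise at 48 h, 128 lower in KO, 9 and 4 in transgene lines and 53 lower in the difference. In KO, 87 were then higher, so that the balance turned. A mean count of at least 50 gave 2 rises at 48 h, 79 lower in KO and 5 and 4 in transgene lines, and leaving out chromosomes 11, X, Y and scaffolds 15 lower in KO.

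Added after seeing the data, a trend of CPM with the ratio taken out per library gave 5 falls and 3 rises at 48 h, 102 lower in KO, 6 and 11 in transgene lines and 7 and 5 in the difference, where Zic4 turned to 0.003. The pairs of lines gave 422 and 28 domains higher in KO, 151 and 19 higher and, in the KO pair, 49 lower in transgene lines.

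At a limit of 15 kb, 1.25% of domains fell and 0.0186% rose at 48 h, 0.0186% were lower on induction and 15.2% lower than input. At 30 kb 3.62% fell at 48 h, 0.0% were lower on induction and 4.17% lower than input. With all peaks as denominator the KO minus WT share turned to -0.275 points. With 1 library left out, ranges were 30 to 44 falls and 0 to 1 rises at 48 h, 0 to 1 rises on induction, 45 to 136 rises and 18 to 33 falls in KO, 0 to 2 falls in transgene lines and 55 to 121 lower and 1 to 2 higher in the difference. With 1 line left out at both times, the share differences ran from -0.0495 to 0.697 points for KO and from -0.13 to 0.67 for transgene. The rises in KO fell to 48 and 45 without WT control at 0 and 48 h and to 50 and 52 without the line labelled KO control. The causes were not tested, apart from fewer libraries or peaks where these were left out.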
